A study of Mus musculus with 48 samples.

Results

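The RNA of glutamate and GABA receptor subunits was followed in the substantia nigra (SN) of mice after injection of α-synuclein (α-syn) into the striatum, with mice breathing either 21% O2 or 11% O2. The members are all genes whose symbol marks an AMPA, NMDA, kainate, delta or metabotropic glutamate receptor subunit, or a GABA-A or GABA-B receptor subunit. The rule used names alone and found 47 of the 19601 genes in the batch-corrected tables, 26 of them for glutamate receptors and 21 for GABA receptors. Of these, 42 passed the filter on low counts and were tested. The other 5 (Grm6, Gabra6, Gabrp, Gabrr1 and Gabrr3) lay too low and are given by their levels.

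Bulk poly(A) RNA was sequenced from dissected SN of male C57BL/6J mice, all injected at an age of 121 days on one side of the brain with preformed α-syn fibrils (PFF) or, as control, with α-syn monomer. The labels place harvest 12 weeks after injection, and the label dates give 90 to 98 days. The study's methods describe breathing of 21% or 11% O2 throughout, whereas the deposited design text places the first 6 weeks of all mice at 21% O2. Of 48 mice, the authors kept 42 after leaving out 6 as outliers: 11 with monomer at 21% O2, 12 with PFF at 21% O2, 9 with monomer at 11% O2 and 10 with PFF at 11% O2. No transgene or deletion is named for any group. The tissue was the whole dissected SN, in which dopaminergic neurons of the pars compacta, GABAergic neurons of the pars reticulata, glia and vessels are mixed. Each mouse was a separate sample, and the 42 kept had 12902996 to 17120921 counts. Of the 6 left out, 1 PFF mouse at 11% O2 (replicate 2) had 3134594 counts, and the other 5 lay within the range of those kept. The labels give 3 batches, which the study ties to the day of euthanasia. No mouse with monomer at 11% O2 came from batch 2, and none with monomer at 21% O2 from batch 3.

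Ionotropic glutamate receptors are tetrameric cation channels: AMPA receptors carry most fast excitation, NMDA receptors need an obligate GluN1 subunit together with GluN2 or GluN3 subunits, and kainate receptors tune release and excitability. Metabotropic glutamate receptors couple to G proteins, group I to Gq and groups II and III to Gi/o. GABA-A receptors are pentameric chloride channels, usually built from alpha, beta and gamma subunits, and GABA-B receptors are obligate pairs of a ligand-binding and a signalling subunit. In the SN, dopaminergic neurons receive dense GABAergic input from the striatum, globus pallidus and pars reticulata, and excitatory input from the subthalamic nucleus among others.

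The tissue label was checked against markers. The dopaminergic genes Th and Slc6a3 had median levels of 662 and 1095 TPM, a read count scaled for transcript length and library size, but Th ranged from 96.1 to 1079 TPM over the 42 mice. Of the GABAergic markers, Gad1 had a median of 448 TPM (266 to 620). The cortical and hippocampal marker Slc17a7 was low at 9.27 TPM (3.06 to 24.2), and Emx1 was at 0 in at least 1 mouse. The samples therefore differed in their content of dopaminergic RNA within every group. The part of dissection, cell loss and batch correction in this spread was not tested. The summed level of 10 dopaminergic markers ran from 1232 to 5027 TPM in monomer mice at 21% O2 and from 1199 to 4995 TPM in PFF mice at 21% O2. At 11% O2 this summed level ran from 1148 to 5563 TPM with monomer and from 1984 to 4704 TPM with PFF. In bulk tissue, fewer cells of a type and less RNA per cell cannot be told apart, which holds for every value that follows.

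Levels differed widely between subunits. Gabbr1, the ligand-binding subunit of GABA-B receptors, had a median of 435 TPM (368 to 555 over 42 mice). Gria1, which encodes the AMPA subunit GluA1, had 199 TPM (170 to 244), below Gabbr1 in all 42 mice and with no overlap of the ranges. Gabrb2, a beta subunit of GABA-A receptors, had a median of 136 TPM and Gabra3, an alpha subunit, of 105 TPM. Gabrb2 exceeded Gabra3 in 36 of 42 mice, although their ranges overlapped. Gria2, Gabbr2 and Gria4 lay at 94.4, 94.1 and 94.0 TPM. Gria2 exceeded Gabbr2 in 17 of 42 mice and Gabbr2 exceeded Gria4 in 20 of 42, so the order of these 3 is not resolved. All neighbouring pairs lower in the order had overlapping ranges.

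At the bottom, Grm6, Gabra6 and Gabrp had a median of 0 TPM, with highest values of 0.0987, 0.510 and 0.0808 TPM. Grm6 encodes a receptor best known from retinal bipolar cells and Gabra6 one of cerebellar granule cells. Gabrr3 had a median of 0.0588 TPM and Gabrr1 of 0.449 TPM, whereas Gabrr2, the third gene for rho subunits of GABA-gated chloride channels, had a median of 6.65 TPM (3.37 to 11.3). Gabrr1 lies 36.7 kb from Gabrr2 on chromosome 4 and on the same strand.

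**Figure D1:**
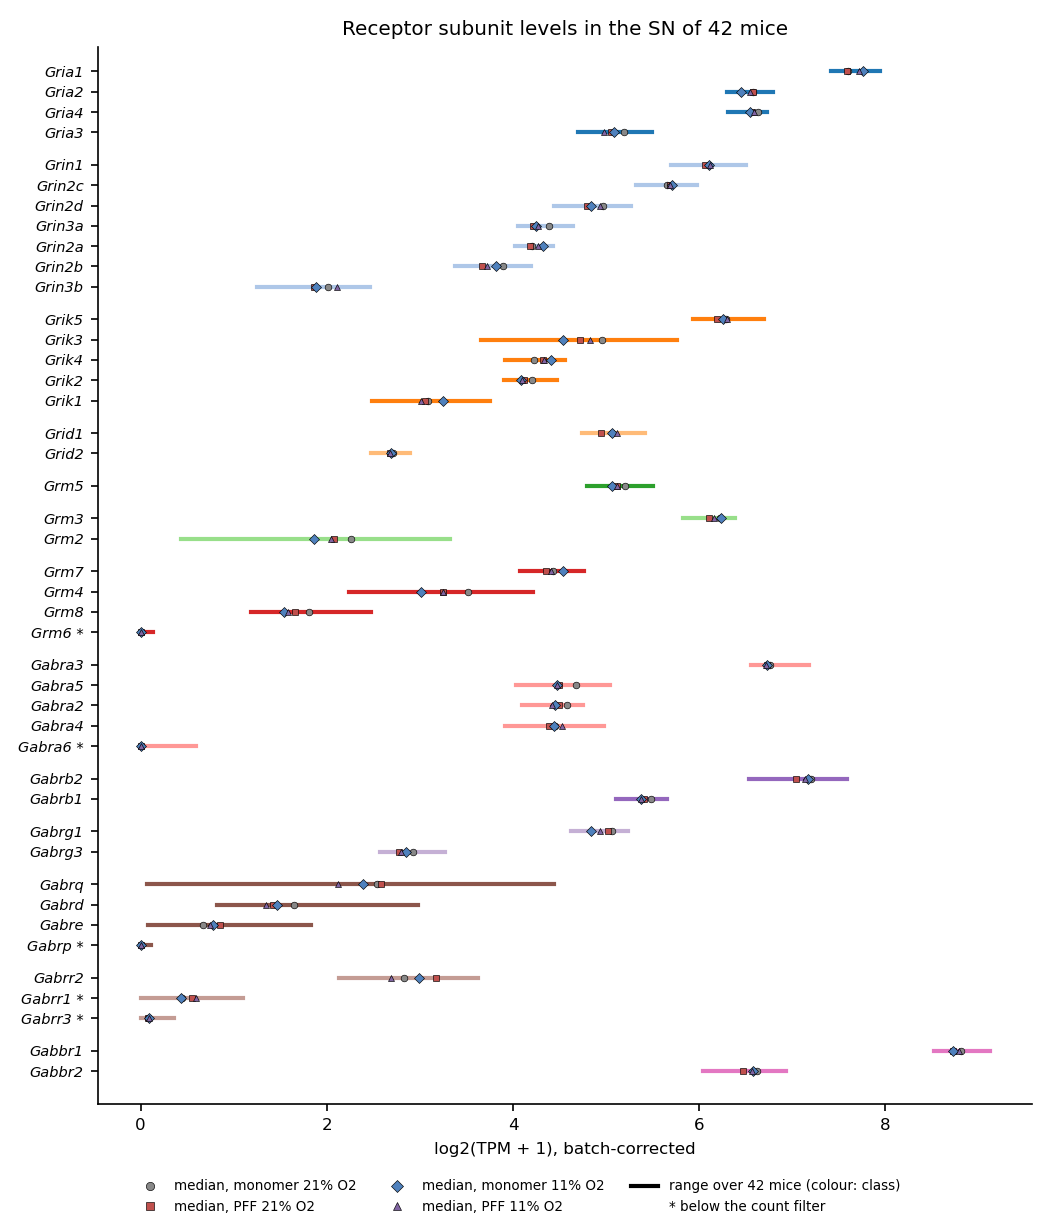
Level of 43 receptor subunits on the log2(TPM + 1) scale, ordered by class (line colour). Lines give the range over 42 mice and symbols the median of each of the 4 groups, so that Gabbr1 (435 TPM) and Gria1 (199 TPM) stand to the right and the members below the count filter, marked with an asterisk, near 0.

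Within families the RNA was unevenly divided. Gabrb2 held 57.3% ± 5.05 (SD, n = 42) of the summed beta subunit TPM and Gabbr1 82.2% ± 1.15 of the GABA-B TPM. Among AMPA subunits, Gria1 held 47.9% ± 3.03, Gria4 22.3% ± 1.39, Gria2 22.1% ± 1.80 and Gria3 7.73% ± 0.949. Gria2 encodes GluA2, whose edited form keeps AMPA channels from passing calcium. Among the GluN2 subunits, Grin2c led with 45.7% ± 3.377, ahead of Grin2d with 26.1% ± 2.51, Grin2a with 16.6% ± 1.75 and Grin2b with 11.6% ± 1.65. These orders depend on the scaling for length, as annotated exons span 24842 bases for Grin2b and 5037 for Grin2c. By median counts per mouse the order was Grin2a (1252.5), Grin2b (1198), Grin2c (1002) and Grin2d (722). Gria2 likewise had a higher median count than Gria1 (5435.5 and 4684). Grin2b is the typical partner of GluN1 in forebrain neurons, while Grin2c is also known from astrocytes and Grin2d from nuclei below the cortex. Grm3, the group II receptor that astrocytes also make, held 33.7% ± 2.37 of the metabotropic TPM. Grik5, an auxiliary-type kainate subunit, held 51.4% ± 3.92 of the kainate TPM.

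The plot of shares gives these proportions in the 4 groups. The Gria1 share was 46.0% ± 1.71 (n = 11) in monomer mice at 21% O2, 46.6% ± 2.35 (n = 12) in PFF mice at 21% O2, 50.0% ± 3.82 (n = 9) in monomer mice at 11% O2 and 49.4% ± 2.28 (n = 10) in PFF mice at 11% O2. The Grm4 share of the metabotropic TPM was 5.03% ± 1.39, 4.41% ± 1.197, 3.42% ± 0.892 and 4.02% ± 0.290 in the same order. The summed TPM of all 47 genes was 2738 ± 169 in monomer mice at 21% O2, 2626 ± 130 in PFF mice at 21% O2, 2674 ± 95.2 in monomer mice at 11% O2 and 2714 ± 131 in PFF mice at 11% O2. Shares and sums were not tested.

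**Figure D2:**
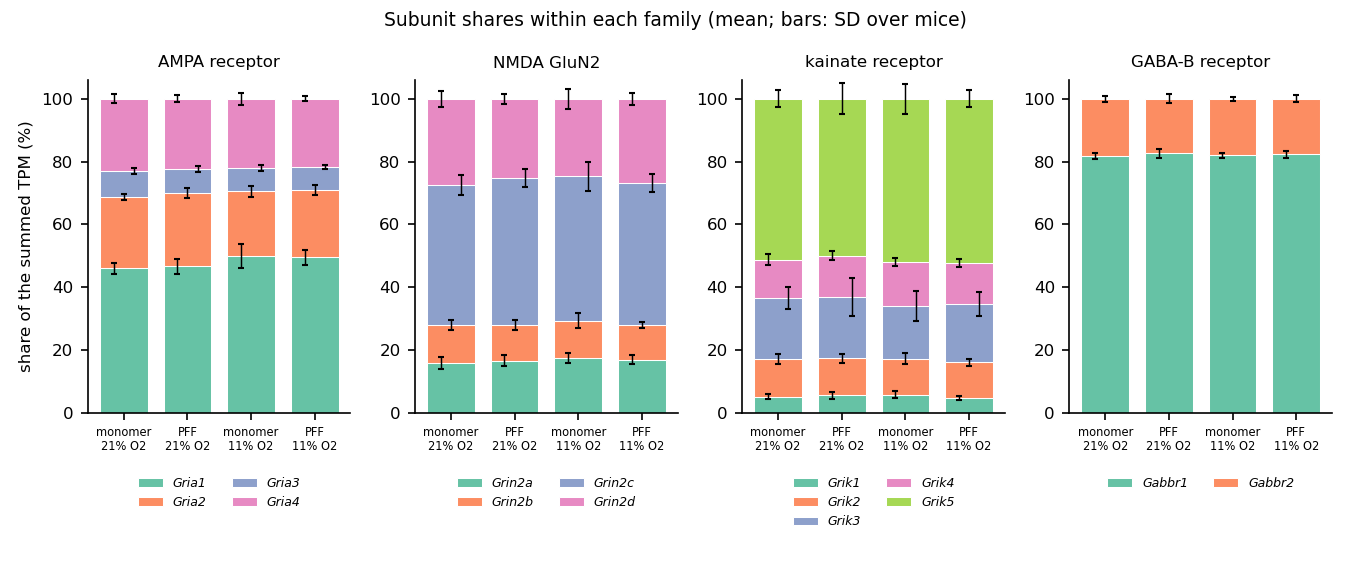
Share of each subunit in the summed TPM of its family (%), as the mean of each group with the SD over mice as error bars. Gria1 holds 46.0% to 50.0% of the AMPA subunit TPM across the 4 groups, and Gabbr1 is the larger part of the GABA-B TPM in each.

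The injection was compared first in mice breathing 21% O2. Gabrr2 was the member called here (adjusted p under 0.05 and a log2 fold change beyond 0.25), and it was higher with PFF. That is 1 of 42 tested members, beside 3.7% of all 14839 genes (2.29% called higher and 1.41% called lower). Gabrr2 lies at chr4:33062999-33095865 on the plus strand of GRCm38, and none of its annotated exon bases is shared with another gene. Its level in monomer mice was 4.65 TPM at the lowest, 6.10 at the median and 7.56 at the highest, and in PFF mice 6.18, 8.02 and 11.3 TPM. The groups overlapped, but 7 of 12 PFF mice lay above the highest monomer mouse and all 12 lay above the monomer median. The log2 fold change was 0.44 (SE 0.127, 95% interval 0.19 to 0.70), or 1.36-fold, with an adjusted p of 0.0249 by edgeR's quasi-likelihood test. Its counts were low, with a median of 54 per mouse (28 at the lowest). Within batches before correction, it differed by 0.27 in batch 1 and by 0.50 in batch 2 on the log2 scale, neither called on its own. By the adjusted p alone, 1 of 42 members passed as well, beside 7.59% of all genes. With the 6 left-out mice included the adjusted p was 0.0739.

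The other members differed less. Grin2d, the GluN2D subunit, ranged from 26.7 to 37.3 TPM (median 30.4) with monomer and from 23.5 to 33.1 TPM (median 26.8) with PFF. Its log2 difference of -0.19 (SE 0.0687) did not pass the test (adjusted p = 0.0903). Of its exon bases, 9.66% are shared with Gm45441, and the library kit does not mark strand. Grin2b ranged from 10.9 to 17.3 TPM (median 13.9) with monomer and from 9.66 to 15.6 TPM (median 11.7) with PFF, a log2 difference of -0.17 (SE 0.0849, adjusted p = 0.232). Grm4, a presynaptic Gi/o-coupled receptor that dampens transmitter release, gave -0.28 (SE 0.146, adjusted p = 0.242).

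Most members leaned the same way at 21% O2 without passing the test. Of the 42, 11 had a higher mean with PFF, beside 50.4% of all genes, and 31 a lower mean, among them 6 of 7 NMDA subunits, all 7 tested metabotropic receptors, all 5 tested alpha and all 3 beta subunits and both GABA-B subunits. Their median log2 fold change was -0.06, against 0.00 for all genes tested. At an unadjusted p under 0.05 there were 2 of 42 members, beside 22.4% of all genes. For 35 of 42 members the 95% interval lay within 0.5 of 0 on the log2 scale, beside 87.3% of all genes. Of 10 general neuronal markers, 9 also had a lower mean with PFF (median log2 -0.04, none called), and their summed level ran from 4185 to 4824 TPM with monomer and from 4029 to 4621 TPM with PFF. Their part in the lean of the receptor genes was not tested.

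In mice breathing 11% O2, no member was called between PFF and monomer. By edgeR, 0 of 42 members had an adjusted p under 0.05 and 0 an unadjusted p under 0.05, and DESeq2 called 0 members as well. Among all genes, 0% were called and 3.92% had an unadjusted p under 0.05. The smallest p was that of Gria2, with 77.9 to 96.6 TPM (median 86.1) in monomer mice and 80.3 to 108 TPM (median 92.6) in PFF mice. The groups overlapped, with a log2 difference of 0.10 (SE 0.0534) and an adjusted p of 1.00. Gabrr2 had a log2 fold change of -0.26 with an interval from -0.55 to 0.03, Gabrg1 of 0.11 (-0.02 to 0.24) and Grik1, the GluK1 kainate subunit, of -0.23 (-0.51 to 0.05). Intervals lay within 0.5 of 0 for 33 of 42 members, beside 89.5% of all genes. Values were above 0 for 26 of 42, beside 49.6% of all genes, with a median of 0.01.

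**Figure D3:**
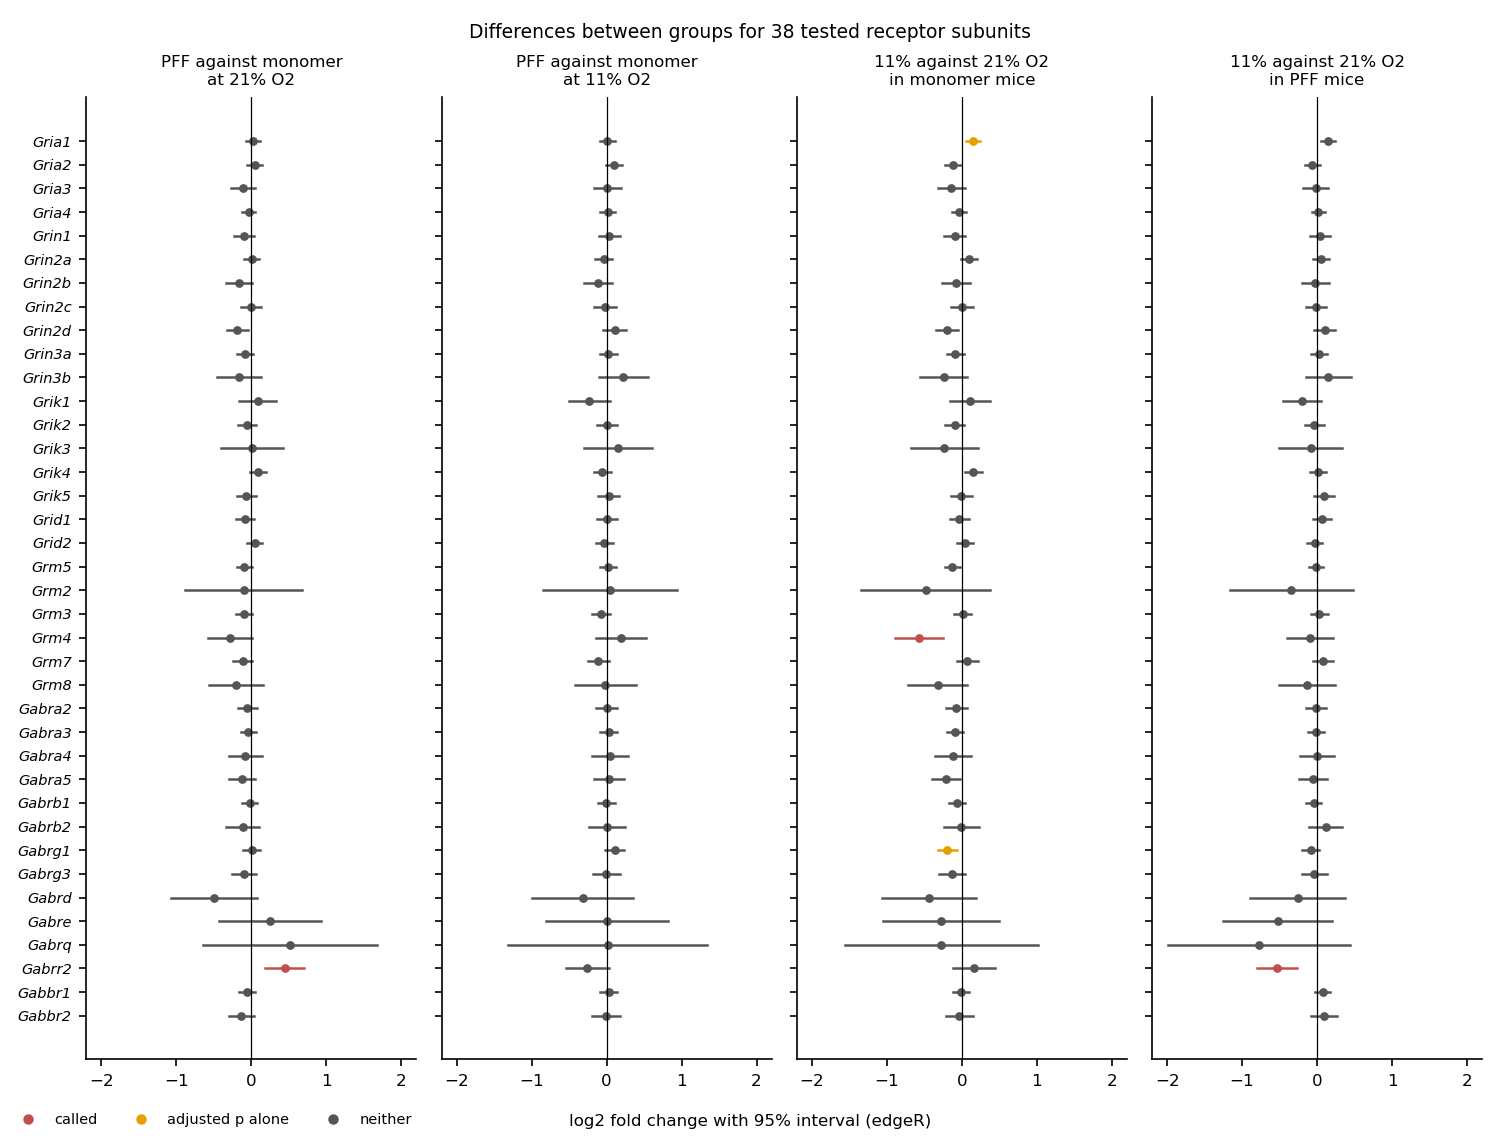
Log2 fold change (x axis) with its 95% interval for 38 tested receptor subunits in 4 comparisons, one in each panel. Red marks members called, namely Gabrr2 with PFF at 21% O2 (0.44), Grm4 with 11% O2 in monomer mice (-0.57) and Gabrr2 with 11% O2 in PFF mice (-0.54), and orange marks those that passed the adjusted p alone.

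Breathing 11% O2 was compared with 21% O2 first in monomer mice. Grm4 was lower at 11% O2, the only called member of the 42, beside 7.23% of all genes (2.55% called lower and 4.68% called higher). Grm4 lies at chr17:27422387-27521403 on the minus strand of GRCm38. In monomer mice it ranged from 6.86 to 17.5 TPM with a median of 10.4 at 21% O2, and from 4.95 to 11.1 TPM with a median of 7.09 at 11% O2. The groups overlapped: 4 of 9 mice at 11% O2 lay below the lowest at 21% O2, and 8 of 9 below the median there. The log2 fold change was -0.57 (SE 0.1598, interval -0.89 to -0.25), or 0.672-fold, with an adjusted p of 0.0128. Only batch 1 holds both groups, with 4 mice each, and there the difference was -0.49 on the log2 scale and was not called (adjusted p = 0.229). Across mice, Grm4 moved with dopaminergic markers (r = 0.49, below), none of which was called here. With the levels of dopaminergic and GABAergic markers in the model, an analysis added after seeing the data, the log2 difference of Grm4 was -0.57 (adjusted p = 0.00397).

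By the adjusted p alone 3 of 42 members passed, beside 13.2% of all genes. Besides Grm4 these were Gabrg1 and Gria1, which did not reach the fold threshold. Gabrg1 encodes the gamma 1 subunit, at chr5:70751047-70842617 on the minus strand. It ranged from 27.4 to 35.0 TPM (median 32.4) at 21% O2 and from 23.7 to 31.7 TPM (median 27.5) at 11% O2. All 9 mice at 11% O2 lay below the median at 21% O2, although the groups overlapped. This was a log2 difference of -0.19 (SE 0.0615) with an adjusted p of 0.0294. Gria1, at chr11:57011387-57330244 on the plus strand, ranged from 169.5 to 214.1 TPM (median 192.6) at 21% O2 and from 170.5 to 244.1 TPM (median 216.5) at 11% O2. Here 8 of 9 mice at 11% O2 lay above the median at 21% O2, and the log2 fold change was 0.15 (SE 0.0485, adjusted p = 0.0340). Without the mouse with monomer at 11% O2 that was harvested 98 days after injection (replicate 11), the adjusted p was 0.0642 for Gabrg1 and 0.0525 for Gria1. Before correction with batch as a covariate it was 0.208 and 0.0698. With no batch term the log2 differences shrank to -0.12 for Gabrg1 (adjusted p = 0.275) and 0.09 for Gria1 (adjusted p = 0.254).

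Grik4, the GluK4 kainate subunit, had 15.6 to 19.9 TPM (median 17.7) at 21% O2 and 18.1 to 22.6 TPM (median 20.2) at 11% O2, a log2 difference of 0.15 (SE 0.0547) that did not pass (adjusted p = 0.0537). Grin2d gave -0.20 (adjusted p = 0.0713) and Grm5, a group I receptor, -0.13 (adjusted p = 0.0935). At an unadjusted p under 0.05 there were 8 of 42 members, beside 27.7% of all genes. Of the 42, 10 had a higher mean at 11% O2, beside 47.9% of all genes, and 32 a lower mean, with a median log2 fold change of -0.08 against -0.01 for all genes. Intervals lay within 0.5 of 0 for 34 of 42, beside 83.3% of all genes. None of the 11 alpha, beta and gamma subunits tested had a higher mean at 11% O2, and their values lay between -0.21 (Gabra5) and -0.01 (Gabrb2). This comparison shares its monomer mice at 21% O2 with the PFF comparison at 21% O2, so the lean of both toward lower values is not independent.

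In PFF mice, Gabrr2 was lower at 11% O2, 1 of 42 members beside 0.58% of all genes (0.142% called lower and 0.438% called higher), and also the 1 member that passed the adjusted p alone, beside 0.815% of all genes. PFF mice at 21% O2 had 6.18 to 11.3 TPM (median 8.02) and those at 11% O2 4.40 to 7.52 TPM (median 5.47). The groups overlapped, with 7 of 10 mice at 11% O2 below the lowest at 21% O2 and all 10 below the median there. The log2 fold change was -0.54 (SE 0.132, interval -0.80 to -0.27), or 0.689-fold, with an adjusted p of 0.0310. Within batches before correction, the difference was -0.27 in batch 1, -0.52 in batch 2 and -0.72 in batch 3, of the same sign in all 3 and called in none. With marker levels in the model it was -0.48 (adjusted p = 0.0716).

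Gria1 in PFF mice ranged from 172.6 to 212.1 TPM (median 190.9) at 21% O2 and from 193.1 to 240.1 TPM (median 208.9) at 11% O2. All 10 mice at 11% O2 lay above the median at 21% O2, and 7 of 12 mice at 21% O2 lay below the lowest at 11% O2. The log2 fold change of 0.14 (SE 0.0463) did not pass the test (adjusted p = 0.185). The value in monomer mice was 0.15, and the interaction for Gria1 was -0.01 (SE 0.0672). Grik1 gave -0.20 (SE 0.128, adjusted p = 0.603). At an unadjusted p under 0.05 there were 3 of 42 members, beside 10.7% of all genes. Intervals lay within 0.5 of 0 for 35 of 42, beside 89% of all genes. Values were above 0 for 19 of 42, beside 46.8% of all genes, with a median of -0.02.

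**Figure D4:**
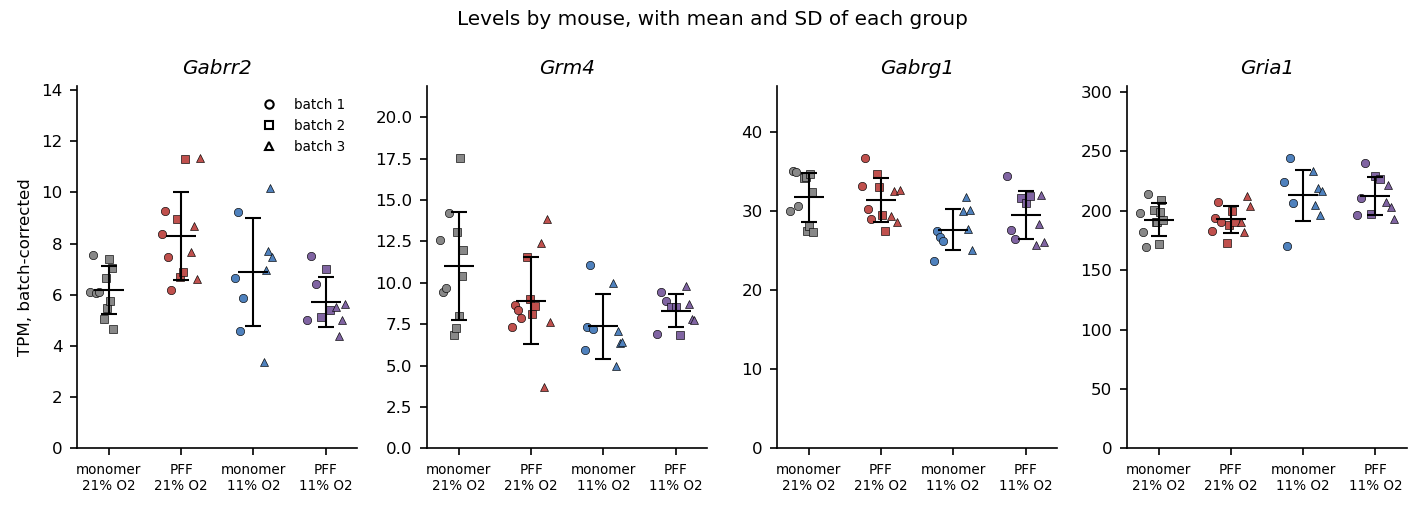
TPM of Gabrr2, Grm4, Gabrg1 and Gria1 in each of the 42 mice by group (colour) and batch (symbol), with the mean and SD of each group as black bars. Gabrr2 is highest in PFF mice at 21% O2 (6.18 to 11.3 TPM), Grm4 in monomer mice at 21% O2 (6.86 to 17.5 TPM), and for each gene all groups overlap.

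A test of the interaction asked whether the effect of PFF differed between 21% and 11% O2. Gabrr2 was the 1 of 42 members called, beside 2.14% of all genes (1.04% called lower and 1.1% called higher), and the 1 that passed the adjusted p alone, beside 2.32%. Its interaction was -0.70 on the log2 scale (SE 0.190, interval -1.09 to -0.32, adjusted p = 0.0347), from 0.44 with PFF at 21% O2 and -0.26 at 11% O2. This call was lost when counts before correction were fitted with batch as a covariate (-0.65, adjusted p = 0.0987), and also on the log2 TPM scale. In batch 1, which alone holds all 4 groups, it was -0.27. The calls of Gabrr2 with PFF at 21% O2, with O2 in PFF mice and in the interaction are not independent. All of them use the same PFF mice at 21% O2. Grin2d gave 0.30 (SE 0.102, adjusted p = 0.117), Grm4 0.47 (SE 0.220, adjusted p = 0.286) and Grik4 -0.14 (SE 0.0757, adjusted p = 0.363). At an unadjusted p under 0.05 there were 3 of 42, beside 15.4% of all genes, and intervals lay within 0.5 of 0 for 30 of 42, beside 77.2%. For 33 of 42 members the interaction was positive, beside 49.7% of all genes, with a median of 0.08 against 0.00. All 10 general neuronal markers also had a positive value (median 0.09, none called), and their part was not tested.

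For none of the 168 pairs of member and comparison did the TPM ranges of the groups separate, beside 0.13% of such pairs over all genes tested. Among members that were not called, those with the widest intervals were the rare ones. Gabrq, which encodes the theta subunit, ran from 0.0459 to 20.7 TPM over the 42 mice, with a coefficient of variation within groups of 95.4%. Before batch correction the same mice ran from 0.699 to 16.3 TPM, so that part of this range came with the correction. Gabre (epsilon subunit), Grm2 and Gabrd (delta subunit) had coefficients between 62.6% and 65.0%. The steadiest was Gria4 at 6.78%.

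Promoter sequences are shown for the members that passed the adjusted p in a comparison of O2 levels and were found in the RefSeq table of promoters (GRCm38.p6, 250 bases before to 50 after the start of transcription). The table held 32 of the 47 members but neither Grm4 nor Gria1, which also passed. Their promoters were therefore not searched. The members shown are Gabrr2, chr4:33062862-33063161 on the plus strand, and Gabrg1, chr5:70842568-70842867 on the minus strand, both written 5′ to 3′.
Gabrr2: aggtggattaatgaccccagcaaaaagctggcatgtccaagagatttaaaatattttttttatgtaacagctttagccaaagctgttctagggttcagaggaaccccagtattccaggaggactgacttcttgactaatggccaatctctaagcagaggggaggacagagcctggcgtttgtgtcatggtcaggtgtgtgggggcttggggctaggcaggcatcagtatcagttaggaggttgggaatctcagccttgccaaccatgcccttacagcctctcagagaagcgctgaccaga
Gabrg1: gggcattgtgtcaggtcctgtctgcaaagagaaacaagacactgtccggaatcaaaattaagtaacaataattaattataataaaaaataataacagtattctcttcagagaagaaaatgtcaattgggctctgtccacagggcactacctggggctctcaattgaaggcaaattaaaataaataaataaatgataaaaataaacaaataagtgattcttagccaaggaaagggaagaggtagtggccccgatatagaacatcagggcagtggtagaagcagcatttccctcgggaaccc
Both windows were searched on both strands for ACGTG and GCGTG, the core letters of the hypoxia response element, which overlap those of the E-box CACGTG. Matches would stand in capitals, and neither window holds one. These letters occurred in 18 of the 39 windows of members (46.2%) and in 43.8% of all 32851 promoter windows in the table. This says only that the letters are not in these windows.

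Genes that serve the receptors were described from lists. Of 31 genes for auxiliary and anchoring proteins of glutamate receptors, 2 were called lower and 0 higher with PFF at 21% O2, beside 1.41% and 2.29% of all genes. A higher mean was found for 6 of 31, beside 50.4% of all genes (median log2 -0.09). Homer1, a scaffold that ties group I metabotropic receptors to calcium stores, showed a log2 difference of -0.27 (SE 0.0558) with an adjusted p of 0.00157. Cnih2, an auxiliary subunit that slows AMPA channels, had -0.30 (SE 0.0838, adjusted p = 0.0209). In monomer mice at 11% against 21% O2, 3 of 31 were called lower, beside 2.55% of all genes: Homer1 by -0.30 (SE 0.0603, adjusted p = 0.000548), Cnih2 by -0.27 (SE 0.0904, adjusted p = 0.0363) and Shisa7, an auxiliary protein of AMPA and GABA-A receptors, by -0.35 (SE 0.120, adjusted p = 0.0421). In PFF mice at 11% against 21% O2, and with PFF at 11% O2, 0 of 31 were called. The interaction was called for 2 of 31, beside 2.14% of all genes: Cnih2 (0.50, SE 0.125, adjusted p = 0.0196) and Homer1 (0.32, SE 0.0834, adjusted p = 0.0273). The comparisons that called Homer1 and Cnih2 all share the monomer mice at 21% O2, so these calls are not independent.

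Of 15 genes for auxiliary and anchoring proteins of GABA receptors, 1 was called in any comparison: Slitrk3, a synaptic adhesion protein of inhibitory synapses, was lower at 11% O2 in monomer mice (log2 -0.28, SE 0.0750, adjusted p = 0.00904), beside 7.23% of all genes called there. Of 18 genes for synthesis, loading and uptake of the transmitters, 1 was called: Slc38a2, an amino acid transporter that supplies glutamine, was lower with PFF at 21% O2 (log2 -0.29, SE 0.0668, adjusted p = 0.00558), beside 3.7% of all genes called there. Single calls in these lists are near the shares over all genes. Neither of the 2 chloride transporter genes was called in any comparison.

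Markers of other cells moved with O2, and single ones were called with PFF. All 8 endothelial markers were called higher at 11% O2 in monomer mice, beside 4.68% of all genes, with a median log2 fold change of 0.52. Their summed level ran from 223 to 303 TPM at 21% O2 and from 300 to 543 TPM at 11% O2. In PFF mice 2 of 8 were called higher, beside 0.438% of all genes, with 189.05 to 333.8 TPM at 21% O2 and 308 to 402 TPM at 11% O2. Of 10 oligodendrocyte markers, 3 were called higher at 11% O2 in monomer mice, beside 4.68% of all genes. The 10 had summed levels of 9623 to 13238 TPM at 21% O2 and 9975 to 15343 TPM at 11% O2. Of 7 precursor markers, 6 had a higher mean there and 1 was called higher (Olig1, log2 0.29). Of 8 tested hippocampal and cortical markers, 1 was called higher (Prox1, 0.28) and 3 had a lower mean. Of 6 striatal markers, Adora2a was called higher at 11% O2 in monomer mice (0.76) and in PFF mice (0.52). In each of these comparisons 3 of the 6 had a lower mean. With PFF at 21% O2, 1 of 10 oligodendrocyte markers was called higher (Opalin, log2 0.60) and 1 of 8 endothelial markers higher (Slco1a4, log2 0.45). Of 7 markers of oligodendrocyte precursors, 1 was called lower (Gpr17, log2 -0.43). Among all genes, 2.29% were called higher there and 1.41% lower. Means were higher for 9 of 10 oligodendrocyte markers (median log2 0.05), 4 of 8 endothelial markers (0.04) and 3 of 7 precursor markers (-0.01). PFF mice at 21% O2 had summed levels of 9558 to 12826 TPM for oligodendrocyte markers and 696 to 1035 TPM for precursor markers, the latter beside 705 to 986 TPM with monomer. The interaction was called for 2 of 10 oligodendrocyte markers, Opalin (-0.71) and Mog (-0.33), beside 1.04% of all genes called lower. All 10 microglial markers had a higher mean with PFF at 21% O2 (median log2 0.13) and a negative interaction (median -0.12). The same 10 were also higher at 11% O2 in monomer mice (median 0.16), a comparison that shares the monomer mice at 21% O2. Their summed level ran from 1135 to 2093 TPM with monomer and from 1179 to 2280 TPM with PFF at 21% O2. No marker of general, dopaminergic or GABAergic neurons, astrocytes or microglia was called in any comparison. The part of vessels, oligodendrocytes and microglia in the differences of Grm4, Gabrg1, Gria1 and Gabrr2, with PFF, with O2 and in the interaction, was not tested.

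Some subunits varied across mice with the neuronal markers of the sample. Each of the 42 tested members was correlated across the 42 mice with the mean log2(TPM + 1) of 10 dopaminergic markers, 3 GABAergic markers and 9 markers of hippocampal and cortical excitatory neurons, as deviations from group means. Of 126 relations, 32 passed (permutation within groups, two-sided, Benjamini-Hochberg adjusted p under 0.05), and all 32 passed both for r and for Spearman's rho. They also passed without the 2 mice farthest from the median marker level, and 31 had the same sign within each of the 3 batches, the exception being Grm8 with the GABAergic markers. The points share libraries, and the dopaminergic and GABAergic marker levels were themselves opposed (r = -0.62, rho = -0.62, permutation p = 9e-05 and 6e-05; r = -0.57 without 2 mice).

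With dopaminergic markers, 11 members rose and 1 fell. Grik3, the GluK3 kainate subunit, showed the closest relation (r = 0.84, rho = 0.86, permutation p = 1e-05 for both, the smallest that 100000 permutations can give, adjusted p = 0.00014 and 0.000115). Its r was 0.83 without 2 mice and 0.92, 0.78 and 0.92 within batches 1, 2 and 3. Grik3 ranged from 11.6 to 53.1 TPM over the 42 mice, although it was called in no comparison. The theta subunit Gabrq (r = 0.77), the alpha 4 subunit Gabra4 (r = 0.76), Gria3 (r = 0.75), Grin2b (r = 0.63), Grik1 (r = 0.63), Grm2 (r = 0.59), Gabbr2 (r = 0.58), Gabbr1 (r = 0.57) and Grm4 (r = 0.49) also rose with the dopaminergic markers. For Grm4 rho was 0.49, the permutation p 0.00209 for r and 0.00199 for rho, the adjusted p 0.00972 and 0.00865, and r without 2 mice 0.46.

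With GABAergic markers, 6 members rose and 13 fell. Among those that rose were Gabrb2 (r = 0.61), the GluN3B subunit Grin3b (r = 0.50) and Grin2a (r = 0.44), the last of which did not pass before batch correction (adjusted p = 0.0671). Grin3b had a median of 36 counts and shares 32.1% of its exon bases with Tmem259, so its counts may mix both genes. Gabra4 and Grik1 fell furthest, both with r = -0.68. Gabrd was the member that moved with hippocampal and cortical markers (r = 0.43, rho = 0.56, permutation p = 0.00448 and 0.00027, adjusted p = 0.0182 and 0.00155, r = 0.38 without 2 mice). Gabrr2 moved with none of the 3 lists (r = -0.20, -0.04 and 0.08, adjusted p = 0.476, 0.897 and 0.761).

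**Figure D5:**
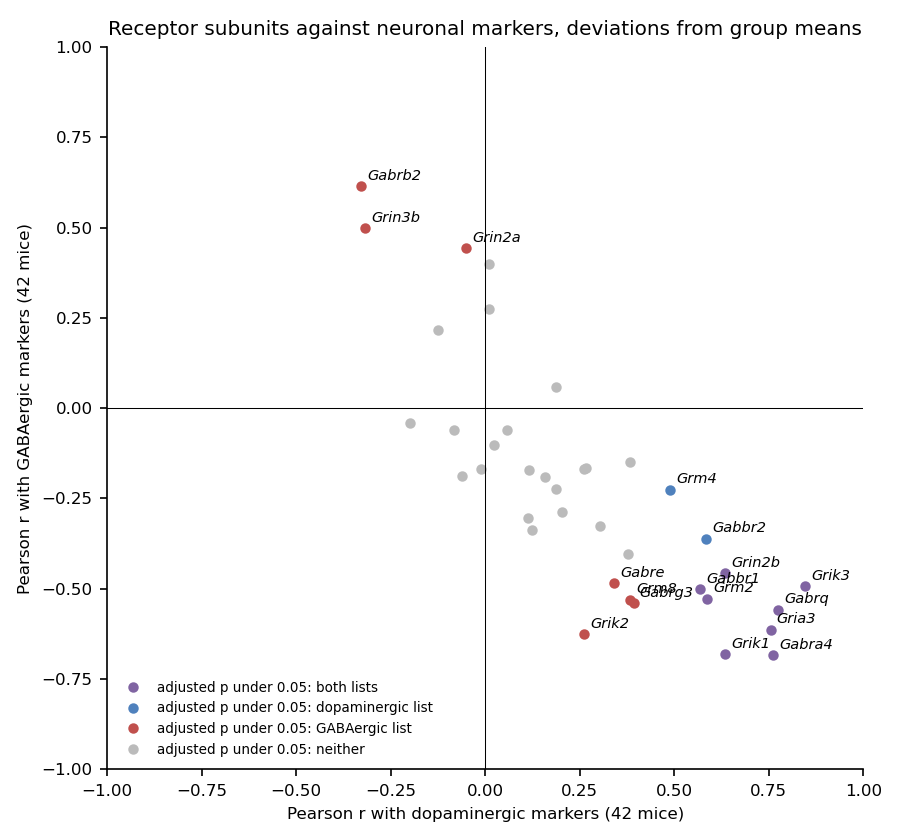
Pearson r of 38 tested receptor subunits with dopaminergic markers (x axis) and with GABAergic markers (y axis) over 42 mice, as deviations from group means. Grik3 (0.84) lies farthest to the right and Gabrb2 (0.61) highest, and coloured, named points passed the adjusted p for one or both lists.

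Several GABA-A genes lie side by side in clusters, and many neighbours varied together across mice. Gabrg1, Gabra2, Gabra4 and Gabrb1 lie together on chromosome 5, Gabra5 and Gabrg3 on chromosome 7, and Gabre, Gabra3 and Gabrq on the X chromosome. Over the 15 tested pairs of members within 1 Mb, r had a median of 0.54 (0.18 to 0.78), and 12 pairs passed (permutation, adjusted over the 15 pairs). Over the other 846 pairs of members the median r was 0.17 (-0.78 to 0.90), so that pairs outside clusters reached values as high. On the X chromosome, Gabre and Gabrq gave r = 0.66 (rho = 0.67, permutation p = 1e-05 for both, adjusted p = 2.5e-05 for both, r = 0.66 without 2 mice), with 0.86, 0.79 and 0.74 within batches. On chromosome 7, Gabra5 and Gabrg3 gave r = 0.58 (rho = 0.62, permutation p = 9e-05 and 5e-05, adjusted p = 0.000193 and 0.000107, r = 0.58 without 2 mice), with 0.78, 0.50 and 0.54 within batches. On chromosome 5, by contrast, Gabra4 and Gabrb1, whose annotated ends overlap on opposite strands, gave r = 0.18 (rho = 0.20, permutation p = 0.287 and 0.219, adjusted p = 0.287 and 0.219, r = 0.13 without 2 mice). The 4 pairs that passed on chromosome 5 did not hold within batch 1, where r lay between -0.41 and -0.06 over 15 mice. These pairs share the marker content of each sample described above, and the part of that content was not tested.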

How the data were processed

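The authors aligned poly(A) RNA-seq reads to mm10 with STAR 2.7.5a, removed duplicates with Picard 2.21.9 and counted reads per GENCODE gene with featureCounts 2.0.1. They left out 6 of 48 mice as outliers of a principal component analysis and corrected the counts of the other 42 for batch with ComBat-seq, keeping injection and O2 as covariates. The deposited files hold whole-number counts and TPM for each gene and mouse, before and after this correction. Corrected counts were tested here with edgeR 4.0.16 (R 4.3.3): TMM scaling, low-count filter by group, a quasi-likelihood fit of 4 groups, Benjamini-Hochberg adjustment over 14839 genes. Genes were called where the adjusted p was below 0.05 and the log2 change exceeded 0.25 in either direction. The fit was tested on simulated counts. DESeq2 1.42.0, limma 3.58.1 and the uncorrected counts served as alternatives. Testing counts that were already batch-corrected takes the correction as known, which can make p-values too small.

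The members given in full were those called in each of the 5 comparisons, filled up to 4 by the smallest p, 10 genes in all. Of the 47 members, 4 are not reported here by themselves, while counts over members include them. Members, gene lists, marker lists and tests were chosen with earlier results of these data known. The correlations of neighbouring genes were added after seeing the data, as was the fit with marker levels. Positions are from GENCODE vM21 (GRCm38), matched on gene ID for 47 of 47 members. Of the 47, 8 share over 5% of their exon bases with another gene, and counts there may mix both.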

Additional observations from a re-analysis of the deposited data

Results flagged for a closer look

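In 4 of 76 combinations of a tested subunit with a group of 9 or 10 mice, the highest or lowest mouse stood far from the others by Dixon's test, which flags about 1 in 20 such groups by chance. Among monomer mice at 11% O2, replicate 3 was highest for Grin2d (37.4 TPM, next mouse 28.7), for the kainate subunit Grik5 (102 TPM, next 79.6) and for Gabbr1 (555 TPM, next 461). Among PFF mice at 11% O2, replicate 4 was highest for Grm7, a presynaptic group III receptor (26.0 TPM, next 21.7).

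For Gabrr2, the effect of PFF differed between 21% and 11% O2 by the test of the interaction (-0.70 on the log2 scale).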

How the results depend on the processing

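Across up to 17 alternatives per comparison, the number of called subunits stayed at 0 for PFF at 11% O2 and at 1 for O2 in monomer mice, except that 3 (Grm4, Gria1 and Gabrg1) passed the adjusted p alone. In batch 1 alone the called subunit there was Gabrg1 (-0.28, adjusted p = 0.0473) in place of Grm4. For PFF at 21% O2, 1 became 0 with all 48 mice and in batches 1 and 2 alone, and 2 with no batch term (Gabrr2 and Gabrd). For O2 in PFF mice, 1 became 0 with no batch term, in each of the 3 batches alone and with marker levels as covariates. For the interaction, 1 became 0 before correction with batch as a covariate (42 or 48 mice), with no batch term, in batch 1 alone, with marker levels as covariates and in all 3 limma fits on log2 TPM. The cause was not tested, though single batches hold fewer mice. Gabrr2 kept its sign in all of these. Of 292 alternative values for the members given in full, 272 stayed as they were, called or not, 19 lost a call and 1 gained one. Most of the 272 belong to members that the main fit did not call. The 19 losses can fall only on the calls of the main fit. These are Gabrr2 with PFF at 21% O2 (15 alternatives), with O2 in PFF mice (16) and in the interaction (13), and Grm4 with O2 in monomer mice (14). Grm4 lost its call in the edgeR fit of batch 1 alone (adjusted p = 0.229). No called value turned its direction. Correlations with markers that passed numbered 32, or 35 before correction and 39 without 2 mice, and of the 32, 30 passed also before correction.

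Replicate numbers are shared between groups but did not pair the mice: same-numbered mice had a median correlation of 0.00335 in their deviations, and 5 of 42 mice correlated best with one of their own number. With the replicate block, the count fell from 1 to 0 for O2 in PFF mice (Gabrr2 adjusted p = 0.0609) and for the interaction (0.0580), and stayed at 1, 0 and 1 in the other comparisons.

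Depth limits the rare subunits most: 5 of 47 could not be tested, and Gabrr2 rests on a median of 54 counts.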

Other observations

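The 6 mice left out by the authors have values before correction alone. Gabrr2 was at 1.38 and 3.85 TPM in the left-out PFF mice at 11% O2, against 3.97 to 7.76 TPM in the 10 kept. The lower value is from replicate 2, whose library had 3134594 counts. It was at 5.56, 5.53 and 4.67 TPM in the left-out monomer mice at 11% O2 (3.24 to 9.63 in the 9 kept) and at 5.61 TPM in the left-out monomer mouse at 21% O2 (4.20 to 7.74 in the 11 kept). Grm4 was at 3.99, 6.25 and 7.06 TPM in the left-out monomer mice at 11% O2, against 4.83 to 12.5 TPM in those kept.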
